A study of Homo sapiens with 13 samples.

Results

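The genes described here are 47 genes that act at the passage from G1 into S phase and in the copying of DNA. They were taken as a fixed list of gene symbols, and each was read from the row of the deposited table whose platform annotation gives that symbol alone. All 47 had such a row, out of 18377 genes with a single symbol. UHRF1 and CLSPN had more than 1 row and were read from the row with the higher mean.

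RNA was measured on 13 whole-transcript arrays, 1 for each flask of cells. HepG2 is a human liver cancer line, labelled as hepatoblastoma, and its 3 flasks were grown without drug at 20% O2. HepG2S1 cells were derived from HepG2 by raising the dose of sorafenib, a kinase inhibitor used in liver cancer, in small steps over months, and were then kept in the drug; the labels do not say whether they are 1 clone. They were harvested in 3 states: 4 flasks with 6 µM sorafenib at 20% O2, 3 flasks withdrawn from the drug at 20% O2, and 3 flasks with 6 µM sorafenib at 2% O2. Every flask was harvested after 72 h, in a medium that held insulin and dexamethasone throughout. Nothing in the labels ties the flasks to independent cultures, and the p-values therefore reflect flask-to-flask spread, which may be technical.

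Entry into S phase is driven by cyclin E with its kinase, which helps to release E2F factors from the RB protein. E2F factors then switch on a shared set of genes for licensing origins, unwinding DNA, synthesising it and supplying deoxynucleotides. In healthy adult liver most hepatocytes rest outside the cycle and these genes are low, while lines such as HepG2 divide continuously.

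Array medians lay between 7.3 and 7.42 on the log2 scale. The median lower quartile of the arrays was 5.76, a level near which array values flatten, and no group mean of the 47 genes fell below it. The labelled liver identity was checked with 12 hepatocyte markers. Their mean level was 12.79 to 12.84 on the HepG2 arrays and 5.96 to 6.06 on the HepG2S1 arrays with drug at 20% O2, where all 12 were lower and 5, among them ALB and AFP, lay below 5.76. Of 10 fibroblast markers 3 (30.0%), DCN, LUM and FAP, were higher in HepG2S1 with the drug, a share near the 30.1% of all genes tested. The list mean was 7.66 to 7.69 against 6.23 to 6.35 in HepG2. The other 7, COL1A1, COL1A2 and COL3A1 among them, did not pass, and the median log2 fold change of the list was 0.03. Of 9 blood and endothelial markers 1 was higher (11.1%) and 4 were lower (44.4%), against 30.1% and 27.2% of all genes. PTPRC stayed below 5.76 in all 4 groups. The labels give HepG2S1 as derived from HepG2. The arrays go against a liver identity of the HepG2S1 cells, no test of their descent from HepG2 was made, and every fold between the lines below is a fold between the cells so labelled. Whether this difference in cell identity has a part in the results on HepG2S1 against HepG2 below was not tested.

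The promoters of these genes were searched for sequence features, which the fixed list of symbols did not use. The windows examined ran from 250 bases before to 50 bases after a start listed in the RefSeq promoter table (GRCh38.p14), which 41 of the 47 genes matched. Of the 41, 10 had several windows, and the first listed was used. It lay at the start of the gene in the RefSeq gene table for 36 genes and inside the gene for 5, by 171 bases (RRM2), 218 (EXO1), 454 (CDC45), 5080 (ORC1) and 6421 (UHRF1). CCNE2, E2F8, MCM4, MCM5, POLD3 and FAM111B did not match. Both strands were searched for the E2F motif, spelled TTTCCCGC, TTTGGCGC, TTTGCCGC or TTTCGCGC, and overlapping matches were each counted. At least 1 E2F match was present in 22 of the 41 windows (53.7%), against 643 of 14210 windows of all genes tested (4.52%) and 1 of 20 windows of G2/M genes (5.0%). The motif CHR, spelled TTTGAA, a known element of genes that peak in G2 and mitosis, showed the opposite distribution. It was present in 1 of 41 windows (2.44%), that of RRM1, against 13 of 20 for G2/M genes (65.0%) and 11.9% of all genes tested. CCAAT, the box bound by the factor NF-Y, was in 23 of 41 windows (56.1%) and in 36.3% of those of all genes tested. E2F matches lay near the start: 18 of 29 (62.1%) began within the 100 bases before it, against 38.3% of 679 matches over all genes tested. With any window of a gene counted, a choice added after the data were seen, E2F matches were in 56.1% of the 41 genes and 5.51% of all genes tested, and CHR matches in 4.88% and 15.7%. These are matches of letters and not shown to be sites. E2F and CHR motifs are known from genes of these classes, so their shares here are not an independent finding.

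**Figure D1:**
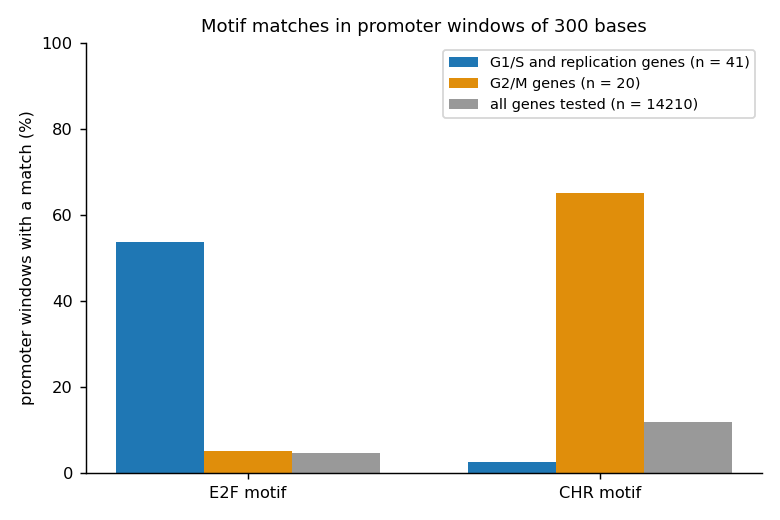
Percentage of promoter windows of 300 bases with at least 1 match to the E2F or the CHR motif on either strand. The bars compare 41 G1/S and replication genes, 20 G2/M genes and 14210 genes tested: E2F matches were in 53.7%, 5.0% and 4.52%, and CHR matches in 2.44%, 65.0% and 11.9%.

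The 250 bases before a listed start, that of the window farthest 5′, are shown for genes on which the results below turn, 3 with large rises after withdrawal (RRM2, CCNE1 and UHRF1), 1 with a small rise (PCNA) and E2F1, which did not pass the test. Capitals in runs of 8 mark E2F matches and capitals in runs of 5 mark the CCAAT box, on either strand.

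RRM2 (chr2:10122318-10122567, plus strand): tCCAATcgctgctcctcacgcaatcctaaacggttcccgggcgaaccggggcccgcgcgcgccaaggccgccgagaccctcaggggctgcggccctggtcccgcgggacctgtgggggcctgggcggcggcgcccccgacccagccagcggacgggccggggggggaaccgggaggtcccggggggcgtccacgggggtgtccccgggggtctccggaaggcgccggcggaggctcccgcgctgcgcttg

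CCNE1 (chr19:29811741-29811990, plus strand): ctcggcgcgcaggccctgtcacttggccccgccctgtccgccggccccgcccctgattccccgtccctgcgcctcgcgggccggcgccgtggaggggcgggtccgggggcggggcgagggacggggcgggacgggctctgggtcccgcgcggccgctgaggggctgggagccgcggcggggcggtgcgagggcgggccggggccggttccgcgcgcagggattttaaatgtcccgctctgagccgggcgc

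UHRF1 (chr19:4909251-4909500, plus strand): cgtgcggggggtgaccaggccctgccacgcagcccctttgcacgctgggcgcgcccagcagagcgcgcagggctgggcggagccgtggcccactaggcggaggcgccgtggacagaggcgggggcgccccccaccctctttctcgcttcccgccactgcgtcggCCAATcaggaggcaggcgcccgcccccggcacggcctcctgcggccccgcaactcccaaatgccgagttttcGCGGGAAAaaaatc

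E2F1 (chr20:33686386-33686635, minus strand): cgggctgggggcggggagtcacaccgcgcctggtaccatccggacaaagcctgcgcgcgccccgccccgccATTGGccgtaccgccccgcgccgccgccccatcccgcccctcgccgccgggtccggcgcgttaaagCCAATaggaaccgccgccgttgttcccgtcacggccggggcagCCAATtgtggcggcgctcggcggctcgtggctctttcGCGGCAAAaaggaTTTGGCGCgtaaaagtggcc

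PCNA (chr20:5126623-5126872, minus strand): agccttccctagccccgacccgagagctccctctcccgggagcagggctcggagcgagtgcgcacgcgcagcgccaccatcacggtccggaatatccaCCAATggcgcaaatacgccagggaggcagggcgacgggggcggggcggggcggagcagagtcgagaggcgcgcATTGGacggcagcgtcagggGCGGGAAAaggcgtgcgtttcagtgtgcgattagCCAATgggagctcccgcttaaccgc

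The stretch of UHRF1 lies before an inner start, and that of each other gene before the start of the gene. RRM2 held 1 CCAAT box here, 3 in its window at the inner start, and no E2F match in either, CCNE1 held neither, UHRF1 held 1 of each, E2F1 held 2 E2F matches and 3 CCAAT boxes, and PCNA held 1 and 3. The 2 E2F matches of E2F1 began 33 and 20 bases before the start.

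The mean level of the 47 genes was lowest in HepG2 and highest in withdrawn HepG2S1, and the 2 groups with drug lay between them and overlapped. The mean level over the 47 genes was 8.56 to 8.67 on the HepG2 arrays, 9.95 to 10.03 in HepG2S1 with drug at 20% O2, 9.99 to 10.03 with drug at 2% O2 and 10.21 to 10.27 after withdrawal. HepG2 had the lowest group mean for 45 of 47 genes, and CCNE1 and E2F8 were the exceptions. The withdrawn cells had the highest for 40, the cells at 2% O2 for 5 (E2F7, ORC1, POLA2, POLD3 and RFC2) and the cells with drug at 20% O2 for 2 (CDT1 and RFC4). A whole flask was read on each array, so that more cells in S phase and more RNA of these genes per cell cannot be told apart.

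**Figure D2:**
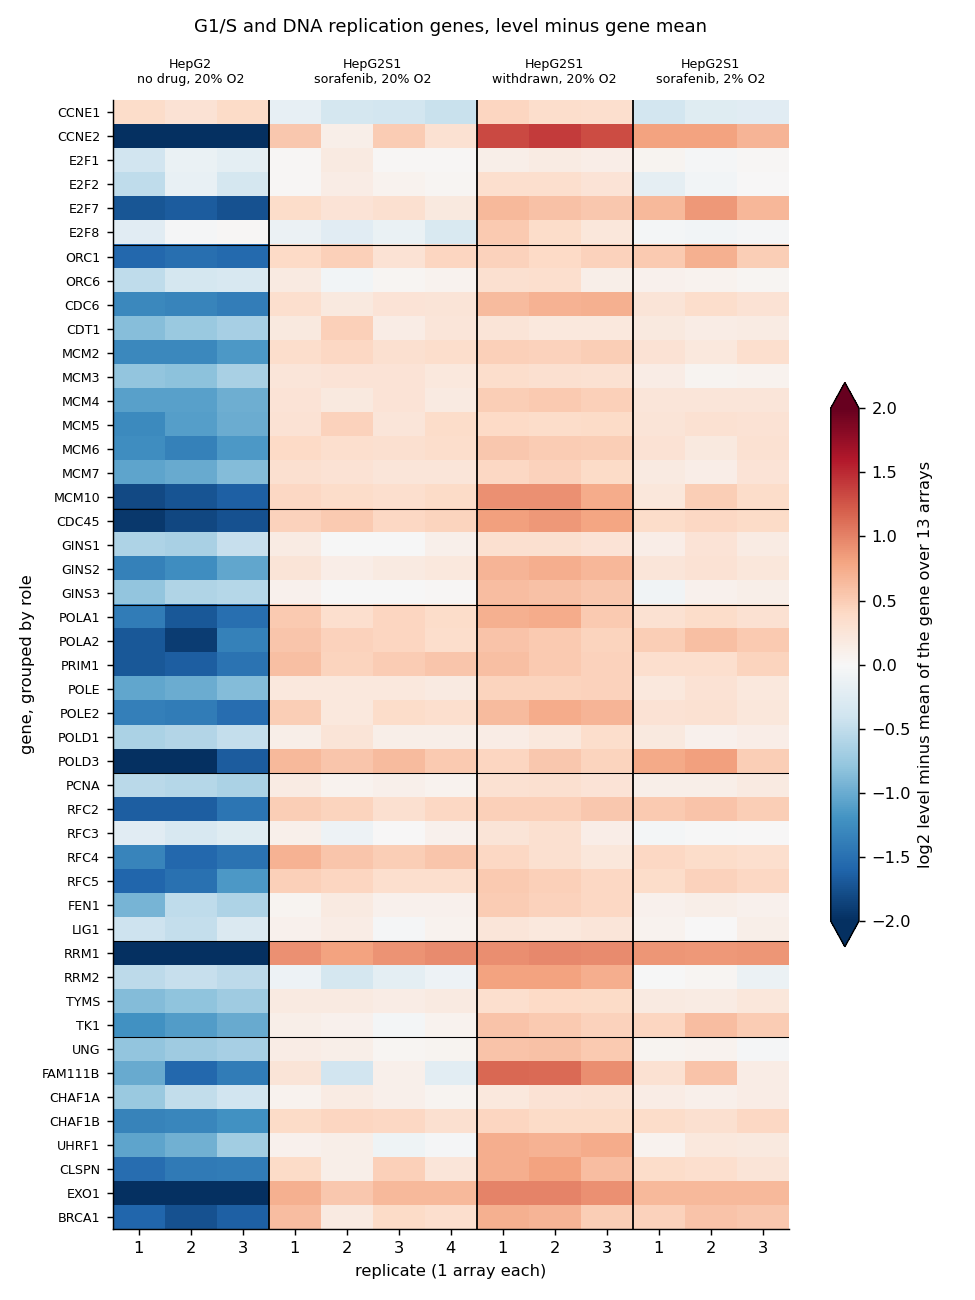
Log2 level of each of the 47 genes on the 13 arrays, minus the mean of the gene over all arrays. Rows are genes in blocks by role, columns are arrays in the 4 groups, and colour runs from blue (below the mean of the gene) to red (above it) and saturates at 2. The 3 HepG2 columns are lowest for 45 genes by group mean, and the 3 withdrawn columns are highest for 40.

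HepG2S1 cells under sorafenib (n = 4) were first compared with untreated HepG2 cells (n = 3), which addresses how the resistant cells differ from the line they are labelled as derived from. Of the 47 genes 45 were higher in HepG2S1, 1 was lower and 1 did not pass an adjusted p of 0.05 in limma. Over all genes tested 30.1% were called higher and 27.2% lower. Of the 45, 30 were higher by at least 2-fold, a size reached by 8.45% of all genes. The median log2 fold change was 1.28 over the 47 genes and 0.01 over all genes. The arrays of both groups did not overlap for the 46 called genes; over all genes tested they did not overlap in the higher direction for 29.4% and in the lower direction for 26.8%. Cell line and drug history change together here, and a drug effect cannot be told apart from other differences between them.

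Ribonucleotide reductase makes deoxynucleotides with a large subunit, RRM1, and a small subunit, RRM2, and their changes were far apart. RRM1 lay at 9.27, 9.16 and 9.30 in HepG2 and at 13.15, 13.04, 13.14 and 13.18 in HepG2S1 with the drug. That is 14.7-fold on the array scale, a log2 fold change of 3.88 ± 0.05 (SE; limma, adjusted p = 1.01e-17), the largest among the 47 genes. RRM2 lay at 8.86, 8.93 and 8.87 against 9.29, 9.04, 9.20 and 9.29, a log2 fold change of 0.32 ± 0.07 (limma, adjusted p = 0.00057). The groups did not overlap for either gene, but for RRM2 the highest HepG2 array, at 8.93, lay close to the lowest HepG2S1 array, at 9.04. The other nucleotide enzymes were between them, with TK1, thymidine kinase, at 1.18 ± 0.06 and TYMS, thymidylate synthase, at 0.96 ± 0.05.

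The 2 forms of cyclin E, the partner of CDK2 at S-phase entry, moved in opposite directions. CCNE2 lay at 7.19, 6.91 and 6.74 in HepG2 and at 10.09, 9.67, 10.06 and 9.86 in HepG2S1 with the drug (2.97 ± 0.11; limma, adjusted p = 1.29e-12). CCNE1 lay at 9.26, 9.19 and 9.28 in HepG2 and at 8.74, 8.54, 8.53 and 8.46 in HepG2S1, a log2 fold change of -0.68 ± 0.07 (limma, adjusted p = 2.36e-07). CCNE1 was the only one of the 47 genes that fell. CDK2 itself, read from a list of RB and E2F control genes, rose by 2.45 ± 0.08.

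The E2F factors differed among themselves. E2F7, a repressor of the family that acts late in S phase, rose by 1.99 ± 0.06, while the related E2F8 was at -0.11 ± 0.08 and did not pass (95% interval -0.28 to 0.05; limma, adjusted p = 0.247). The activators changed less. E2F1 lay at 9.21, 9.45 and 9.39 in HepG2 and at 9.62, 9.77, 9.62 and 9.61 in HepG2S1 with the drug, a change of 0.31 ± 0.06 (limma, adjusted p = 0.000497), and E2F2 rose by 0.40 ± 0.08. All 4 values of E2F1 in HepG2S1 lay above those in HepG2.

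All 11 licensing genes rose, with a median of 1.45. Licensing loads the MCM helicase onto origins bound by ORC, with CDC6 and CDT1 as loaders. MCM2 lay at 9.00, 9.00 and 9.13 in HepG2 and at 10.64, 10.70, 10.60 and 10.63 in HepG2S1 with the drug (1.60 ± 0.05; limma, adjusted p = 3.25e-13). The 6 subunits of the helicase, MCM2 to MCM7, rose by 1.01 (MCM3) to 1.60 (MCM2 and MCM6), so that they moved within a narrow range. ORC1, the ATPase subunit of the origin complex, rose by 1.94 and ORC6 by 0.45. CDC6 rose by 1.59 and CDT1 by 1.02, and MCM10, which acts after loading, rose by 2.09. Activation of the helicase needs CDC45 and the GINS complex. CDC45 rose from 7.61, 7.73 and 7.80 to 10.01, 10.06, 9.96 and 9.99 (2.29 ± 0.05), whereas GINS2 rose by 1.41, GINS3 by 0.68 and GINS1 by 0.64.

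All 7 polymerase and primase genes rose, with a median of 1.95. POLD3, an accessory subunit of polymerase delta, lay at 7.26, 7.27 and 7.70 in HepG2 and at 10.02, 9.92, 10.00 and 9.89 in HepG2S1 with the drug (2.55 ± 0.10), while its catalytic partner POLD1 rose by 0.71 ± 0.06. PRIM1, the catalytic primase subunit, lay at 8.49, 8.54 and 8.70 against 10.79, 10.62, 10.69 and 10.73 (2.13 ± 0.06). POLA1 and POLA2, both of polymerase alpha, rose by 1.95 and 2.10, and POLE and POLE2 of polymerase epsilon by 1.17 and 1.78. In the clamp loader, which places the PCNA ring on DNA, RFC2, RFC4 and RFC5 rose by 2.00, 2.03 and 1.80, but RFC3 by 0.28 ± 0.06. PCNA lay at 10.19, 10.16 and 10.09 in HepG2 and at 10.88, 10.79, 10.83 and 10.80 in HepG2S1 (0.68 ± 0.05; limma, adjusted p = 5.46e-09). FEN1, the flap nuclease, rose by 0.78 and LIG1, the ligase that joins Okazaki fragments, by 0.46. The folds of these complexes were thus uneven between subunits of the same machine.

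All 8 genes of chromatin, repair and checkpoint rose. EXO1, a nuclease of mismatch repair and end resection, lay at 7.26, 7.01 and 7.03 in HepG2 and at 10.26, 10.10, 10.20 and 10.20 in HepG2S1 with the drug, 8.52-fold higher (3.09 ± 0.06; limma, adjusted p = 1.13e-15). BRCA1, of homologous recombination, rose by 2.03, CLSPN, the checkpoint mediator claspin, by 1.74 and FAM111B, a protease of dividing cells, by 1.27 ± 0.15. The histone chaperone subunits CHAF1B and CHAF1A rose by 1.67 and 0.64. UHRF1, which guides maintenance of DNA methylation, rose by 0.93, and UNG, which removes uracil from DNA, by 0.82. A second row of UHRF1 with a lower mean did not move, at -0.03.

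Related lists were read in the same way. Of 35 other replication factors 29 rose and 5 fell (median 1.12), with DTL, an adaptor of CDT1 degradation, at 2.69 and DSCC1, of an alternative clamp loader, at 2.26. Of 18 S-phase repair and checkpoint genes 16 rose and 1 fell (median 1.16), with RAD51AP1 at 2.33 and FANCI at 2.07. Of 20 RB and E2F control genes 13 rose and 3 fell (median 0.46), with E2F6, a repressor, at -1.50. Of 26 G2/M genes 25 rose (median 1.32), with CENPF and NUF2, both of the kinetochore, at 2.56 and 2.30.

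Withdrawn HepG2S1 cells (n = 3) were compared with HepG2S1 cells under the drug at 20% O2 (n = 4), which addresses what happens to S-phase genes when sorafenib is taken away. Of the 47 genes 26 rose, 1 fell and 20 did not pass in limma, against 10.1% of all genes higher and 7.9% lower. This is 55.3% of the 47 genes higher. The median log2 fold change was 0.24 over the 47 genes and -0.02 over all genes tested, and 44 of the 47 had a positive value. The changes were small next to those between the lines. FAM111B was the only one that rose by 2-fold, a size that 0.109% of all genes reached. The arrays did not overlap, with the withdrawn arrays higher, for 31 of 47 genes and for 16.2% of all genes; with them lower, this held for 1 gene and 14.0% of all genes.

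**Figure D3:**
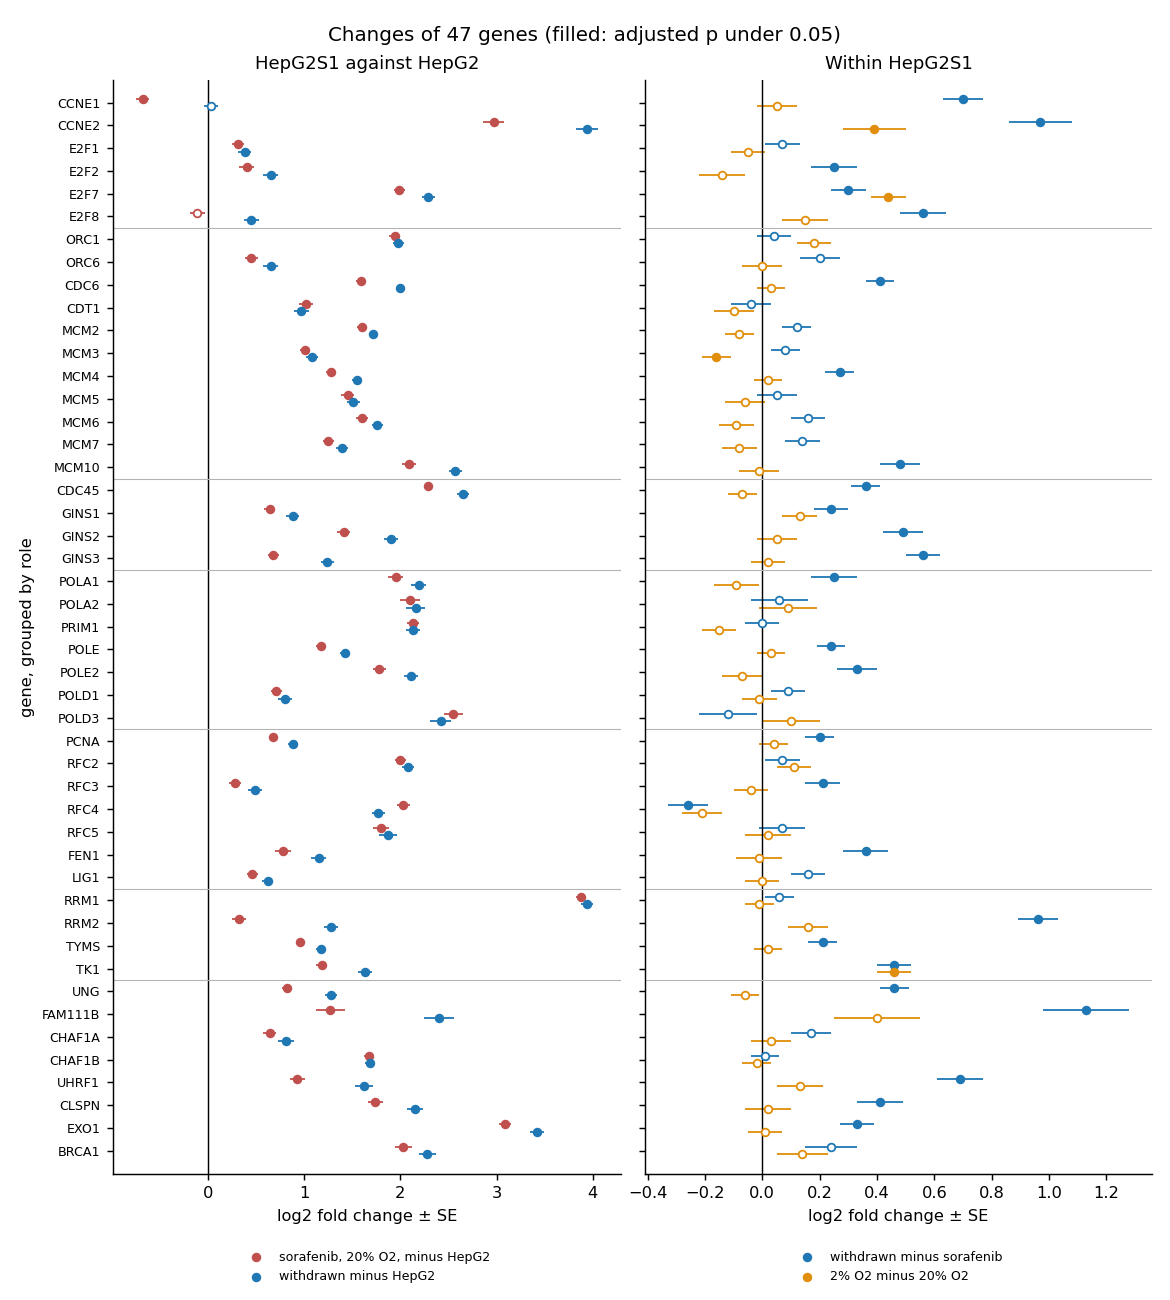
Log2 fold change with its SE for the 47 genes, in blocks by role. The left panel sets HepG2S1 with sorafenib (red) and withdrawn HepG2S1 (blue) against HepG2, and the right panel sets withdrawal (blue) and 2% O2 (orange) against HepG2S1 with sorafenib at 20% O2; filled points have an adjusted p under 0.05 in limma. On the right, 26 blue points are filled above 0 and 1 below it, and 3 orange points above 0 and 1 below it. The axes of the panels differ in range, and the comparisons within each panel share their control arrays.

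The largest rises were in genes of different roles. FAM111B lay at 9.24, 8.60, 9.08 and 8.78 with the drug and at 10.13, 10.12 and 9.91 after withdrawal (1.13 ± 0.15; limma, adjusted p = 0.000142). CCNE2 lay at 10.09, 9.67, 10.06 and 9.86 with the drug and at 10.87, 10.94 and 10.86 without it (0.97 ± 0.11; limma, adjusted p = 3e-05). RRM2 lay at 9.29, 9.04, 9.20 and 9.29 with the drug and at 10.20, 10.20 and 10.11 without it (0.96 ± 0.07; limma, adjusted p = 6.44e-07). Every withdrawn array lay above every array with the drug for these 3 genes. Replicate 2 with the drug was the lowest of its group for each of them, and without it the changes were 1.02, 0.89 and 0.91. RRM1, the partner of RRM2, lay at 13.15, 13.04, 13.14 and 13.18 with the drug and at 13.17, 13.20 and 13.19 without it, a change of 0.06 ± 0.05 that did not pass (95% interval -0.05 to 0.17). The small subunit thus changed where the large one did not pass the test, the reverse of their sizes between the lines. No test of that difference between the subunits was run.

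CCNE1 rose as well, from 8.74, 8.54, 8.53 and 8.46 to 9.33, 9.25 and 9.24 (0.70 ± 0.07; limma, adjusted p = 8.26e-06). Its withdrawn arrays overlapped those of HepG2, at 9.26, 9.19 and 9.28. E2F8 rose from 7.59, 7.48, 7.57 and 7.39 to 8.23, 8.07 and 7.92 (0.56 ± 0.08), E2F7 by 0.30 ± 0.06 and E2F2 by 0.25 ± 0.08. The E2F2 call was lost under 8 of 16 alternative settings, among them without any single array of either group other than replicate 2 with the drug (adjusted p up to 0.107). E2F1 lay at 9.71, 9.75 and 9.72 after withdrawal, within its range of 9.61 to 9.77 with the drug, and did not pass (0.07 ± 0.06; limma, adjusted p = 0.518).

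Helicase activation and licensing differed in how many members passed, and that difference was not tested. All 4 genes of helicase activation rose: GINS3 by 0.56, GINS2 by 0.49, CDC45 by 0.36 and GINS1 by 0.24, a call lost without replicate 1 or 2 after withdrawal (adjusted p up to 0.0591). Of the 11 licensing genes 3 rose, MCM10 by 0.48, CDC6 by 0.41 and MCM4 by 0.27. The other helicase subunits had values of 0.05 (MCM5) to 0.16 (MCM6) and did not pass. MCM2 was one of them, at 10.64, 10.70, 10.60 and 10.63 with the drug and 10.76, 10.75 and 10.77 after withdrawal (0.12 ± 0.05; limma, adjusted p = 0.142). Its groups did not overlap, but the gap was small, and with array weights it passed (limma, adjusted p = 0.0207). CDT1 was at -0.04 and ORC1 at 0.04. A positive value was found for 10 of the 11 licensing genes. MCM6 and ORC6 each gained the call under 4 of 16 settings, and MCM7 under 2.

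Among polymerases POLE2 rose by 0.33, POLA1 by 0.25 and POLE by 0.24, while POLD1, POLD3, POLA2 and PRIM1 did not pass. The POLA1 arrays overlapped, and its call was lost under 7 of 16 settings, among them without replicate 1 or 2 after withdrawal or replicate 2, 3 or 4 with the drug (adjusted p up to 0.181). PCNA lay at 10.88, 10.79, 10.83 and 10.80 with the drug and at 11.03, 11.04 and 11 after withdrawal, a small change of 0.20 ± 0.05 (limma, adjusted p = 0.00881). FEN1 rose by 0.36 and RFC3 by 0.21, a call that was lost under 6 of 16 settings, among them without replicate 1 or 2 after withdrawal or replicate 2 or 3 with the drug (adjusted p up to 0.161). RFC4 lay at 11.31, 11.16, 11.11 and 11.17 with the drug and at 11.02, 10.93 and 10.83 without it. It was the only one of the 47 genes that fell (-0.26 ± 0.07; limma, adjusted p = 0.0155), and that call was lost under 3 of 16 settings, among them without replicate 2 or 3 after withdrawal (adjusted p up to 0.0836). UHRF1 rose from 10.46, 10.49, 10.28 and 10.35 to 11.09, 11.06 and 11.11 (0.69 ± 0.08; limma, adjusted p = 4.31e-05). Its other row was at -0.06, and the mean of both rows rose by 0.31. UNG and TK1 each rose by 0.46, CLSPN by 0.41, EXO1 by 0.33 and TYMS by 0.21.

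E2F matches were in 14 of the 22 windows of genes that rose (63.6%) and in 8 of the 19 windows of those that did not (42.1%). Windows with 2 or more matches went the other way, with 0 among genes that rose and 5 among those that did not. Neither difference was tested. Single genes went both ways: UHRF1 and PCNA rose with 1 match each, and RRM2 and CCNE1 rose with none of the E2F spellings searched in their windows. Other spellings were not searched. E2F1 and MCM2, with 2 matches each, did not pass, and the matches of MCM2 overlapped and lay after the start.

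Outside the 47 genes, where 10.1% of all genes were higher, 13 of 35 other replication factors rose (37.1%) and 1 fell, with TIPIN, of the fork protection complex, at 0.46 and ASF1B, a histone chaperone, at 0.44. Of 20 RB and E2F control genes 9 rose and 1 fell, among them CDC25A, the phosphatase that activates CDK2, at 0.60 and E2F3 at 0.51. Of 18 repair and checkpoint genes 8 rose and 1 fell, with BRIP1 at 0.61 and HELLS at 0.53. Of 26 G2/M genes 5 rose and 2 fell (19.2% higher, median 0.10), with HMMR at 0.56 and CCNB1 at 0.32. Whether the 47 genes differ from the G2/M list was not tested. Of the 10 fibroblast markers 2 rose as well, DCN by 0.82 and LUM by 0.73, and the other 8 did not pass. The list mean was 7.80 to 7.82 after withdrawal against 7.66 to 7.69. The part of these markers in the changes of the 47 genes was not tested.

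**Figure D4:**
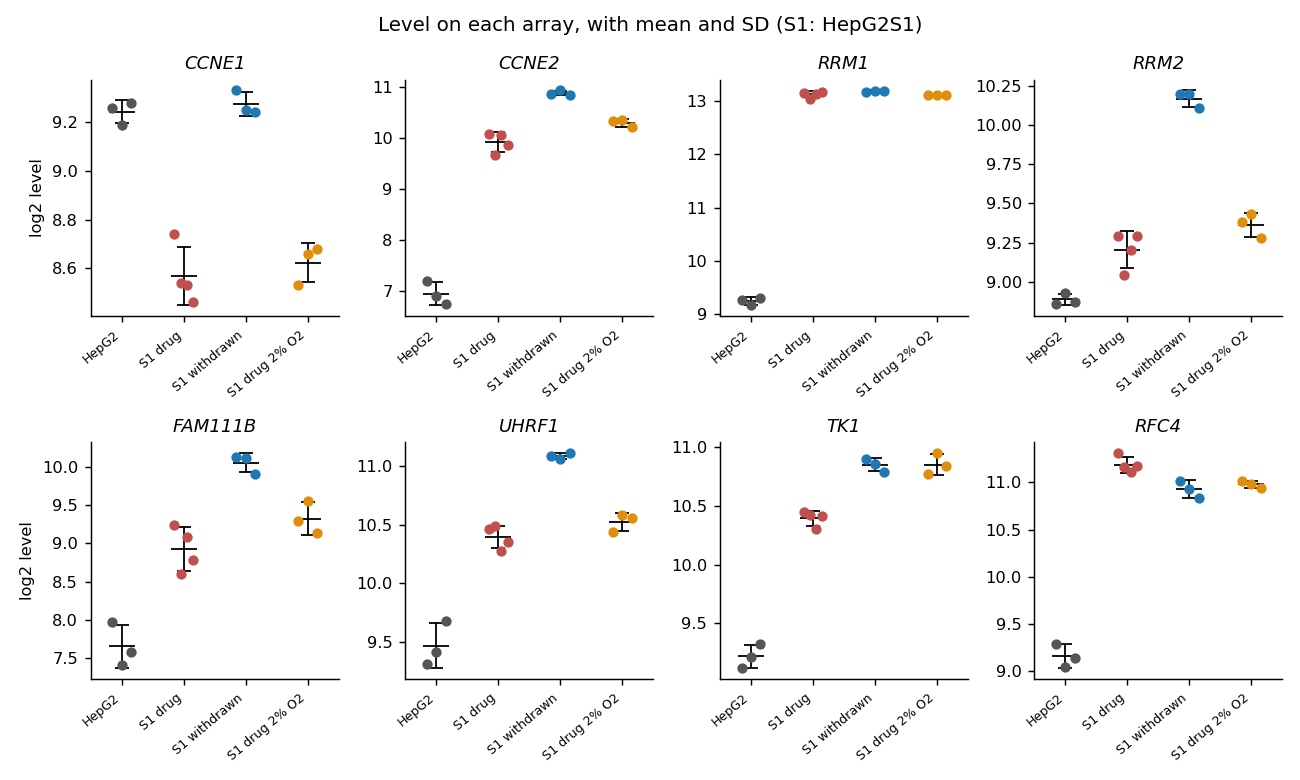
Log2 level on each array for 8 of the genes, with the mean and SD of each group (n = 3, 4, 3 and 3 from left to right; S1 stands for HepG2S1). Each panel has its own axis, which does not start at 0. CCNE1 of withdrawn cells lies with HepG2, RRM1 of all HepG2S1 groups lies above HepG2, RRM2, FAM111B and UHRF1 are highest after withdrawal, TK1 at 2% O2 overlaps withdrawn cells, and RFC4 in both lies below its values with drug at 20% O2.

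HepG2S1 cells under sorafenib at 2% O2 (n = 3) were set against the 20% O2 flasks with drug (n = 4) to ask how S-phase genes respond to low oxygen. In limma 3 of 47 rose (6.38%) and 1 fell (2.13%), against 8.99% higher and 6.17% lower among all genes tested. With so few calls these shares are near those of all genes, and they are not read as a result about the 47 genes. The arrays did not overlap for 5 genes in the higher and 4 in the lower direction, against 13.9% and 14.3% of all genes. The median log2 fold change was 0.02 over the 47 genes and -0.03 over all genes. The count dropped from 4 to 2 without replicate 1 or 2 at 2% O2 or replicate 2 or 4 at 20% O2.

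TK1 lay at 10.45, 10.42, 10.30 and 10.41 at 20% O2 and at 10.77, 10.95 and 10.84 at 2% O2 (0.46 ± 0.06; limma, adjusted p = 0.000183). E2F7 lay at 9.94, 9.85, 9.90 and 9.78 against 10.23, 10.45 and 10.24 (0.44 ± 0.06; limma, adjusted p = 0.000278). Both groups were apart on these 2 genes, and both calls held under all 16 alternative settings. CCNE2 lay at 10.35, 10.36 and 10.22 at 2% O2, above its 4 values at 20% O2 (0.39 ± 0.11; limma, adjusted p = 0.0242), and lost its call under 5 of 16 settings, among them without replicate 1 or 2 at 2% O2 or replicate 2 or 4 at 20% O2 (adjusted p up to 0.0947). MCM3 was the only one that fell, from 11.60, 11.63, 11.63 and 11.57 to 11.50, 11.41 and 11.42 (-0.16 ± 0.05; limma, adjusted p = 0.0457), and lost its call under 9 of 16, among them without any single array of either group. FAM111B lay at 9.29, 9.55 and 9.13, overlapping its values at 20% O2 (0.40 ± 0.15; limma, adjusted p = 0.0903).

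The genes with the largest rises after withdrawal had smaller values here. RRM2 lay at 9.38, 9.43 and 9.28 (0.16 ± 0.07, 95% interval 0.02 to 0.30; limma, adjusted p = 0.121), CCNE1 at 8.53, 8.66 and 8.68 (0.05 ± 0.07) and UHRF1 at 10.44, 10.58 and 10.56 (0.13 ± 0.08). PCNA lay at 10.84, 10.84 and 10.91 (0.04 ± 0.05), MCM2 at 10.57, 10.50 and 10.61 (-0.08 ± 0.05) and E2F1 at 9.64, 9.56 and 9.62 (-0.05 ± 0.06). The other lists had 11.1% to 15.0% of their genes higher, near the 8.99% of all genes, and these counts are not read as a response. Of 35 replication factors 4 rose, with POLE4 at 0.28 and TICRR, which helps to fire origins, at 0.26. Of 18 repair genes 2 rose, BRIP1 at 0.46 and BARD1, the partner of BRCA1, at 0.21. In RB and E2F control 3 rose and 2 fell of 20, with E2F5 at -0.32 and E2F4 at 0.23, and 3 of 26 G2/M genes rose, HMMR at 0.41 and CCNB2 at 0.19 among them.

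Withdrawal and low oxygen were both measured against the same 4 arrays, so the cells at 2% O2 with drug were also set directly against the withdrawn cells, which tests the difference between both responses. Drug and oxygen both differ between these groups, and their parts cannot be told apart in this comparison. Of the 47 genes 27 were lower at 2% O2 with drug (57.4%), none was higher and 20 did not pass in limma; over all genes 7.73% were lower and 10.8% higher. At an adjusted p of 0.05, the count of higher genes was 1 with array weights and 0 in the other settings. The arrays did not overlap for 35 of 47 genes with 2% O2 lower and for 1 with it higher, against 19.2% and 18.8% of all genes. The median was -0.21 over the 47 genes and -0.03 over all genes. RRM2 differed most, at 9.38, 9.43 and 9.28 against 10.20, 10.20 and 10.11 (-0.81 ± 0.07; limma, adjusted p = 2.51e-06). FAM111B (-0.73 ± 0.16), CCNE1 (-0.65 ± 0.07), CCNE2 (-0.58 ± 0.11) and UHRF1 (-0.56 ± 0.09, or -0.28 as the mean of both rows) followed. GINS3 lay at 9.04, 9.19 and 9.22 at 2% O2 and at 9.72, 9.69 and 9.64 after withdrawal (-0.54 ± 0.07; limma, adjusted p = 6.99e-05). Of the 11 licensing genes 7 were lower, among them 5 of the 6 helicase subunits by 0.20 to 0.25 on the log2 scale. Some of these calls were lost when 1 array was left out. MCM2 lost it without replicate 1 or 3 after withdrawal or replicate 2 at 2% O2 (adjusted p up to 0.0808), and MCM7 without replicate 2 after withdrawal or replicate 1 or 2 at 2% O2 (up to 0.0778). PCNA (-0.16 ± 0.05) lost it without any single array of either group other than replicate 3 at 2% O2 (up to 0.126), and TYMS without replicate 2 or 3 after withdrawal or replicate 1 or 2 at 2% O2 (up to 0.0872).

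TK1 and E2F7 did not pass in this direct comparison. TK1 was at 0.00 ± 0.07 (95% interval -0.14 to 0.14), with 10.90, 10.86 and 10.79 after withdrawal, and E2F7 at 0.14 ± 0.07 (95% interval 0.00 to 0.28). POLD3 was at 0.22 ± 0.11 and E2F1 at -0.12 ± 0.07, and neither passed. Of the 26 G2/M genes 2 were lower (7.69%) and 2 higher (7.69%) at 2% O2 with drug, against 7.73% and 10.8% of all genes. These counts are not read as a response. The 2 higher ones were UBE2C, of mitotic protein degradation, by 0.48 and CDC25C by 0.33. Of 35 other replication factors 6 were lower (17.1%), TIPIN at -0.40 and DSCC1 at -0.38 among them, and 1 was higher (2.86%). CDC25A was at -0.59 and HELLS at -0.49. DCN (-0.30) and LUM (-0.64) were lower too, and their part was not tested.

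Withdrawn HepG2S1 cells were last compared with HepG2, with neither group in sorafenib at harvest. Of the 47 genes 46 were higher and 1 did not pass in limma, against 29.6% higher and 27.0% lower among all genes. The arrays of the 46 did not overlap, which held in the higher direction for 31.2% of all genes and in the lower for 29.2%. Of the 46, 35 were higher by 2-fold or more, against 8.37% of all genes, and the median was 1.63 against -0.01 over all genes. This comparison shares its HepG2 arrays with the first one, and its values differ from those by the withdrawal changes above. CCNE2, at 3.94 ± 0.11 (limma, adjusted p = 1.05e-13), and RRM1, at 3.94 ± 0.06, were 15.4-fold and 15.3-fold higher, followed by EXO1 (3.42), CDC45 (2.65), MCM10 (2.57) and POLD3 (2.42). EXO1 lay at 10.54, 10.54 and 10.47 and POLD3 at 9.80, 9.90 and 9.81 in withdrawn cells, each above its HepG2 values. MCM10 lay at 7.56, 7.64 and 7.73 in HepG2 and at 10.27, 10.28 and 10.10 in withdrawn cells, and CDC45 at 10.36, 10.41 and 10.33, far above its HepG2 values. RRM2 was at 1.28 ± 0.07, PCNA at 0.88 ± 0.05, MCM2 at 1.72 ± 0.05 and E2F1 at 0.38 ± 0.07. CCNE1 was the gene that did not pass, at 0.03 ± 0.07 with a 95% interval of -0.12 to 0.18 (limma, adjusted p = 0.772). The calls of this comparison held under all 14 alternative settings, and those of the first under all 15.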

How the data were processed

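RNA of 13 flasks was measured on whole-transcript arrays, 1 array each. The log2 values in the table the authors deposited come from RMA, according to the submitters' processing notes; its version is not given in the sources used here. RMA corrects background, normalizes by quantiles and summarises probes, and it shrinks folds near the floor. The table names no batch or scan date, so that batch and group cannot be told apart.

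Of 28926 rows, 19310 had 1 symbol, 1752 several and 7864 none; 19279 of the 19310 matched RefSeq by Entrez ID. For 685 genes with several rows the one of highest mean was kept, which left 18377 genes. The 47 genes and the related lists were chosen with earlier results of these data known. Of the related lists, genes with no row of a single symbol were not analysed here.

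Groups were compared in limma 3.58.1 (R 4.3.3), where 1 linear model held all 4 group means and p-values were moderated with eBayes, then adjusted by Benjamini-Hochberg across all 18377 genes. The threshold was an adjusted p of 0.05. Log2 fold changes are the first group minus the second, with SE and 95% intervals from this fit. For each comparison, values on every array are given for the 6 called genes with the largest change and no overlap, and for CCNE1, CCNE2, E2F1, PCNA and MCM2. From each related list up to 2 called genes are named. The alternatives were other moderation, a fit of just the 2 groups compared, dropping genes below the 33rd percentile, array weights, shifting each array to a common 75th percentile, quantile normalizing again, averaging the rows of a gene, an adjusted p of 0.01, the HepG2S1 arrays alone and leaving out each array. The fit was tested on simulated data with known changes. Figures were drawn with matplotlib 3.10.9 (Python 3.11.15).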

Additional observations from a re-analysis of the deposited data

Results flagged for a closer look

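In the group of 4 HepG2S1 arrays with drug at 20% O2, 5 of the 47 genes had 1 array set apart from the other 3, with a gap of 0.83 to 0.959 of the range of the group, past Dixon's critical value at 95%. Chance sets such an array apart in about 1 of 20 groups. For 3 of them it was replicate 2: E2F1 lay at 9.77 there and at 9.61 to 9.62 on the others, POLD1 at 9.00 against 8.86 to 8.86, and FEN1 at 9.33 against 9.21 to 9.23. POLE lay at 9.74 on replicate 4 against 9.77 to 9.77, and TYMS at 12.11 on replicate 3 against 12.15 to 12.15. Without replicate 2, 25 of the 47 genes rose after withdrawal and 1 fell.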

How the results depend on the processing

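The counts of genes called between HepG2S1 and HepG2 were 46 in every alternative, for cells with the drug and for withdrawn cells. For withdrawal the count of 27 ranged from 22 to 34 over 16 settings, and 22 genes were called in all of them. For 2% O2 with drug against withdrawn cells the count of 27 ranged from 20 to 31, with 20 genes called in all 15 settings. Leaving out 1 array at a time gave 46 to 46, 22 to 28, 2 to 4, 46 to 46 and 22 to 27 in the order of HepG2S1 with drug against HepG2, withdrawal, 2% O2, withdrawn cells against HepG2, and 2% O2 against withdrawal. For 2% O2 against 20% O2 the count of 4 became 7 with array weights, 4 higher and 3 lower, and 2 at an adjusted p of 0.01; it was 2 without replicate 1 or 2 at 2% O2 and without replicate 2 or 4 at 20% O2. The cause was not tested. Of 651 values of single genes under an alternative 630 kept their direction and their side of the threshold, 20 lost the call, and 1 gained it. No called value changed sign, but 4 values that did not pass did: under 75th percentile scaling CCNE1 and PCNA at 2% O2 against 20% O2 went from 0.05 to -0.01 and from 0.04 to -0.02, and CCNE1 in withdrawn cells against HepG2 went from 0.03 to -0.05, or to -0.04 with quantile normalization repeated. Scaling to the 75th percentile moved the median of all genes at 2% O2 from -0.03 to -0.09 and that of the 47 genes from 0.02 to -0.04. No paired analysis was possible because the labels give no replicate numbers that the groups share. Precision is limited by the 3 or 4 arrays of a group, and changes of about 0.2 on the log2 scale, such as those of PCNA and TYMS, lie close to what the fit can call.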

Other observations

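Of 18 further nucleotide supply genes, beyond RRM1, RRM2, TYMS and TK1, 11 were higher and 6 lower in HepG2S1 with drug than in HepG2 in limma, a median of 0.32. These shares, 61.1% and 33.3%, compare with 30.1% higher and 27.2% lower over all genes. CDA, cytidine deaminase, rose by 2.13 ± 0.06 and NT5E, the surface 5'-nucleotidase, by 1.48 ± 0.10. After withdrawal 6 rose (33.3%) and 1 fell, against 10.1% higher over all genes, with UMPS at 0.51 ± 0.06 and DHODH at 0.41 ± 0.08, both enzymes of pyrimidine synthesis. At 2% O2 2 rose (11.1%) and 4 fell (22.2%) against 20% O2, with 8.99% and 6.17% over all genes, with GART, of purine synthesis, at -0.38 ± 0.05 and NT5E at 0.37 ± 0.10. Set against withdrawn cells, those at 2% O2 with drug had 7 lower (38.9%) and 1 higher, against 7.73% lower over all genes. CTPS1, CTP synthase, was at -0.48 ± 0.06 and GART at -0.45 ± 0.05.

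The rows of CLSPN gave close values, with 1.74 and 1.56 for HepG2S1 with drug against HepG2 and 0.41 and 0.48 for withdrawal. Those of UHRF1 did not: the row used had a mean of 10.39 with drug and 11.09 after withdrawal, and the other row 7.06 and 6.99.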
